A study of Homo sapiens with 80 samples.

Results

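In all, 8 of the 43388 genes in the deposited tables were followed through the differentiation of human pluripotent stem cells to cardiomyocytes: PHACTR2, TRIM2, EML5, MAP1B, DISP1, PYGM, CCDC18-AS1 and ARHGEF25. They were chosen by their values in an RNA-only experiment with 3 lines. The rule took small p-values among genes that differed one way between differentiations of high and low purity in all 3 lines. When recomputed, some of the 8 ranked high in the mean of the stages and others only at single stages. That experiment's high against low differences are given below as a description with no test. Its tests of steps between stages use those same libraries, so they are not independent of the choice. A second, multi-omic experiment with WTC11 wells was not used in the choice, and the tests of high against low purity come from it.

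Cells were differentiated by WNT activation with CHIR99021 on day 0, WNT inhibition with IWP2 on day 2 (WTC11) or day 3 (H9 and IMR90-4), its removal, and a change to insulin-containing medium on day 6 or 7. The purity class, high or low, came from day 16 flow cytometry of cardiac troponin T. In the multi-omic experiment poly(A) RNA was sequenced from WTC11, an induced pluripotent stem cell line, with 25 wells of 1 high purity differentiation at passage 52 and 31 wells of 1 low purity differentiation at passage 69. Each class had 4 wells on days 0, 2, 4 and 6, with 3 high and 4 low purity wells on day 8, 1 and 4 on day 10, 2 and 4 on day 13, and 3 and 3 on day 16. In the RNA-only experiment total RNA was sequenced from H9, an embryonic stem cell line (high purity at passage 58, low at passage 55), IMR90-4, an induced pluripotent line (high at passage 55, low at passage 75), and WTC11 (high at passage 81, low at passage 69). Each of these 6 differentiations gave 1 library at each of 4 steps, called stages 1 to 4: day 0 and then days 2, 4 and 6 in WTC11, or days 3, 5 and 7 in H9 and IMR90-4. All groups received the same sequence of agents, with the CHIR99021 dose set for each line.

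Purity, passage and differentiation cannot be told apart in the multi-omic experiment, because each class was 1 differentiation, and its p-values therefore measure only well-to-well spread. The low purity WTC11 differentiations of both experiments carry the same passage label, and the labels do not say whether they are 1 differentiation. Reads per library ranged from 6579715 to 18143597 in the multi-omic experiment and from 17990882 to 40357968 in the RNA-only experiment. Of the 4 low purity day 13 wells, 3 were nearest in expression to a low purity day 16 well; without these 3, each call for the 8 genes on day 13 was the same. The multi-omic count and TPM tables do not give the same wells the same names: 0 of 56 TPM columns equalled the count column of that name, and 50 equalled a column of another name. The TPM names were used. Under them, 52 of 55 columns compared were nearest in expression to a column of their own class and day. Under the count table's names, 25 of 55 were. Of 32 columns of days 0 to 6, 32 were nearest to a WTC11 RNA-only library of the same day under the TPM names. Under the count table's names, 6 of 32 were. With those count names, 17 of the 56 differences between high and low purity for these genes changed sign and 17 others lost their call. In these bulk samples, fewer cells of a type and less RNA per cell cannot be told apart.

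As background, the pathway that patterns these cells is a pulse of WNT signalling followed by its inhibition, which takes pluripotent cells through mesendoderm and cardiac mesoderm to beating cardiomyocytes, with stromal and other cells as the common alternative products. PHACTR2 belongs to a family that binds actin and protein phosphatase 1, and ARHGEF25 is a guanine nucleotide exchange factor that switches on small GTPases; both act on the actin cytoskeleton. MAP1B and EML5 bind microtubules, TRIM2 is a ubiquitin ligase of the TRIM-NHL family, DISP1 releases lipid-modified hedgehog ligands from the cells that make them, PYGM is the muscle isoform of glycogen phosphorylase, and CCDC18-AS1 is a long non-coding RNA.

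In RefSeq on GRCh38.p14, PHACTR2 lies at chr6:143536878-143831185, ARHGEF25 at chr12:57610116-57617245, TRIM2 at chr4:153152163-153339317, MAP1B at chr5:72107475-72209565 and DISP1 at chr1:222815039-223005995, all on the plus strand. EML5 lies at chr14:88612431-88792953, PYGM at chr11:64746389-64760715 and CCDC18-AS1 at chr1:93310109-93345811, all on the minus strand. The RefSeq promoter table, with 250 bases before and 50 after each start, held 5 of the 8 genes, with 16 starts. The stretch before the first start, less any base inside a protein-coding exon of GENCODE v29, is printed for PHACTR2 and CCDC18-AS1, the genes of the table whose 12 RNA-only pairs of high and low purity libraries all went one way. Capitals mark GC boxes (GGGCGG on either strand), and both sequences run 5′ to 3′ on the gene's own strand.
PHACTR2, chr6:143536628-143536844, plus strand: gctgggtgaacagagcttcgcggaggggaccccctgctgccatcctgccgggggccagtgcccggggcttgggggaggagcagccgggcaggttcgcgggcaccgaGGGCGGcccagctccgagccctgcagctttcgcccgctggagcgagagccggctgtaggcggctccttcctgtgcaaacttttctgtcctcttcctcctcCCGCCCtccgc
CCDC18-AS1, chr1:93345812-93345887, minus strand: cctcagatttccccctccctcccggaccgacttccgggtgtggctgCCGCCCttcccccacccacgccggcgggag
The CCDC18-AS1 stretch is the whole interval of 76 bases between its RefSeq start and the start of DR1 on the other strand in GENCODE v29, and with the RefSeq start of CCDC18-AS1 the genes lie head to head on either side of it. GENCODE v29 draws CCDC18-AS1 longer, at chr1:93262186-93346025, so that it covers this interval and overlaps the start of DR1. The G and C share of the CCDC18-AS1 stretch was 73.7%, and that of the PHACTR2 stretch was 71.4% over 217 bases. GC boxes were found in 42.6% of the 250-base windows before all 35116 starts in the table. A match of CTTTGAT, the core of the site bound by TCF and LEF factors, was in 2.26% of all windows and in 0 of the 16 windows of these genes, which says only that those letters are not there.

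The rule's contrast was recomputed with edgeR to see where the genes stood, as a description. Averaged over the stages, PHACTR2 ranked 1 and ARHGEF25 2 among genes with one direction, followed by PHLDA3 and ITGA6, which are not in the set, then by CCDC18-AS1 at 5, TMEM250, also outside it, and TRIM2 at 8. The others ranked far lower in the average and entered through single stages: EML5 at 5 in stage 2, behind TRIM2 at 2, MAP1B at 1 and DISP1 at 3 in stage 3, and PYGM at 8 in stage 4. Genes outside the set stood just beside them: in stage 2, ID2 at 6 had a log2 difference of -1.31 beside -2.05 for EML5, and in stage 3, LOC105378747 at 4 had 1.54 beside 1.07 for DISP1. Genes with smaller p-values than a member were also outside it in stages 2 and 4, so the list is not the top of any 1 ranking. Of 23848 genes fitted, 31.5% had one direction in all 3 lines in the stage mean, and 0.625% had one direction in all 12 pairs of line and stage. PHACTR2, lower in high purity, and CCDC18-AS1 and ARHGEF25, higher in high purity, had one direction in 12 of 12 pairs. TRIM2 was lower in 10 and EML5 in 9 pairs, and DISP1 was higher in 10, PYGM in 8 and MAP1B in 7.

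**Figure D1:**
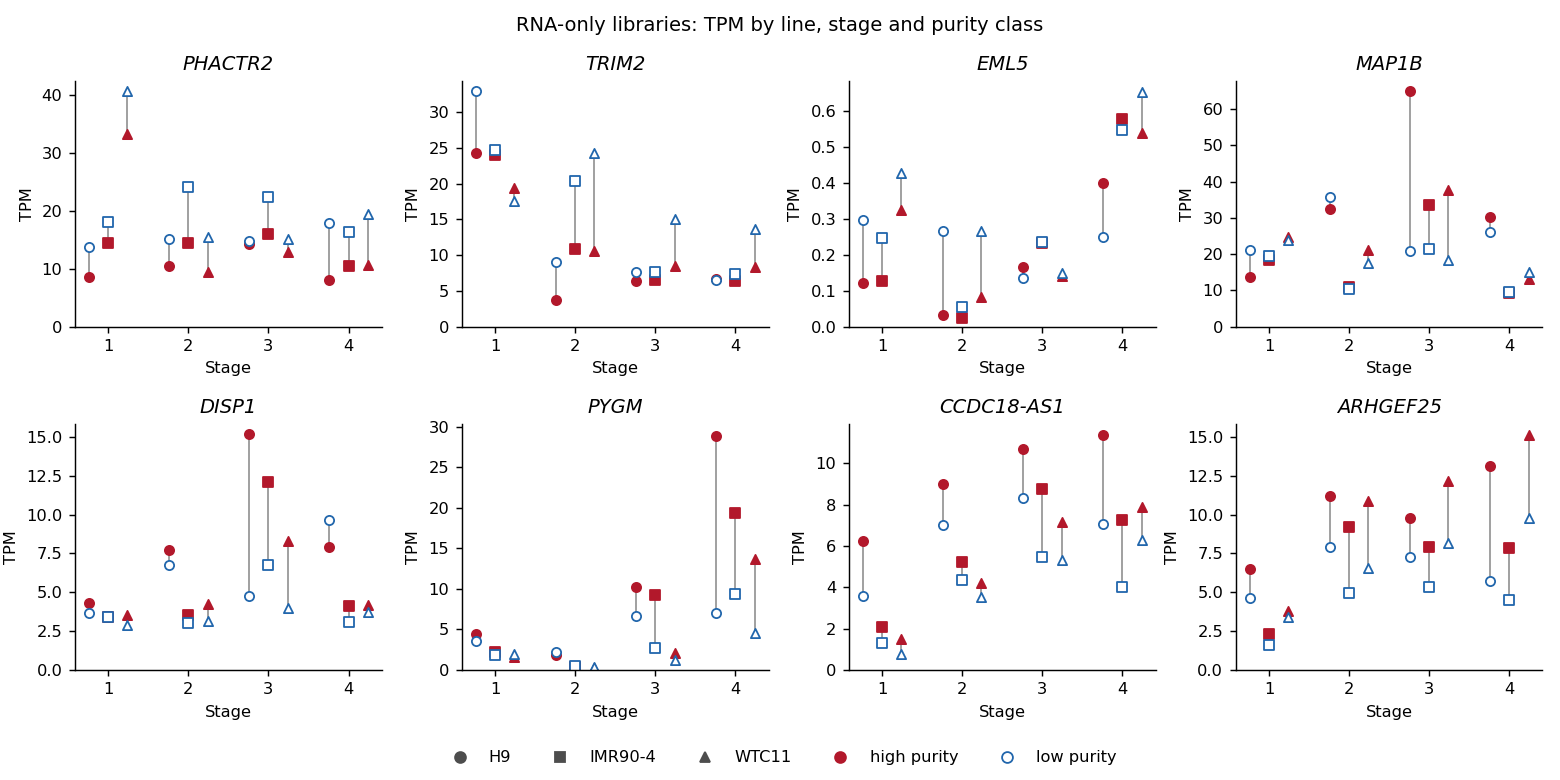
TPM (y axis, linear from 0) of the 8 genes at stages 1 to 4 (x axis) in the 24 RNA-only libraries; filled red symbols are high and open blue symbols low purity libraries, symbol shape is the line, and a grey line joins the 2 libraries of a line and stage. PHACTR2 is lower, and CCDC18-AS1 and ARHGEF25 are higher, in high purity in 12 of 12 pairs. MAP1B is higher in high purity in all 3 lines at stage 3 only, and DISP1 at stages 2 and 3 only. Both have their widest gap at stage 3.

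The multi-omic wells, not used in the choice, were then tested. By limma with Benjamini-Hochberg adjustment over 25664 genes, 3 of the 8 genes differed between high and low purity wells on day 0, where 13.7% of all genes tested did. The count was again 3 on day 2 (background 37.5%) and on day 4 (36.8%), then 6 on day 6 (40%). All 8 were called at day 8 (44.7%), followed by 5 at day 13 (36%) and 5 at day 16 (43.1%). The direction was split: on day 8, 4 were higher (background 23.1%) and 4 lower (21.6%) in high purity wells. Each of the 8 was called on at least 1 of the 7 days, as were 80.4% of all genes, and DISP1 and CCDC18-AS1 were called in both directions on different days, as were 21.6% of all genes. The median log2 difference of the 8 genes was 0.13 on day 0 and -0.078 on day 16, with a range of -1.81 to 2.02 on day 16. All 8 passed the filter on low TPM. Log2 differences here are on the scale log2(TPM + 1), after scaling each library by its TMM factor, which understates changes of low genes.

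Changes over time were common in both classes. In high purity wells limma called 8 of the 8 genes from day 0 to day 2 (background 50.5%), 7 from day 2 to day 4 (46.2%), 6 from day 4 to day 6 (32.4%) and 7 from day 6 to day 16 (51%). In low purity wells it called 7 (53%), 6 (49.7%), 4 (35.2%) and 7 (45.7%) at these steps. The change from day 0 differed between the classes for 6 genes at day 6 (22.1%) and 5 at day 16 (34.8%).

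Set against the RNA-only lines, 22 of the 32 combinations of gene and stage had one direction in all 3 lines. At the matched day the multi-omic wells differed the same way with an adjusted p under 0.05 in 9 of these, the opposite way in 1, and were not called in 12. Over all genes in both fits with one direction in the 3 lines, 22.3% of such combinations were called the same way and 15.4% the opposite way. By stage the shares of all genes were 9.43%, 25.1%, 22.7% and 28% the same way and 5.6%, 18%, 18.6% and 16.4% the opposite way at stages 1 to 4. The 9 were PHACTR2 at stages 1, 3 and 4, ARHGEF25 at stages 1, 3 and 4, DISP1 at stage 2, CCDC18-AS1 at stage 3 and PYGM at stage 4. The opposite one was TRIM2 at stage 2. Where the 3 lines were mixed, some calls went against the log2 difference of the WTC11 RNA-only pair. These were MAP1B on day 2 (-0.30 against 0.24), EML5 on day 6 (1.13 against -0.10) and DISP1 on day 6 (-0.78 against 0.13). TRIM2 on day 0 and MAP1B on day 6 were called the same way as that pair. At the stages by which EML5, MAP1B and DISP1 entered the set the multi-omic wells were not called. For EML5, lower in all 3 lines at stage 2, the day 2 log2 difference was 0.052 (adjusted p = 0.757 by limma).

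**Figure D2:**
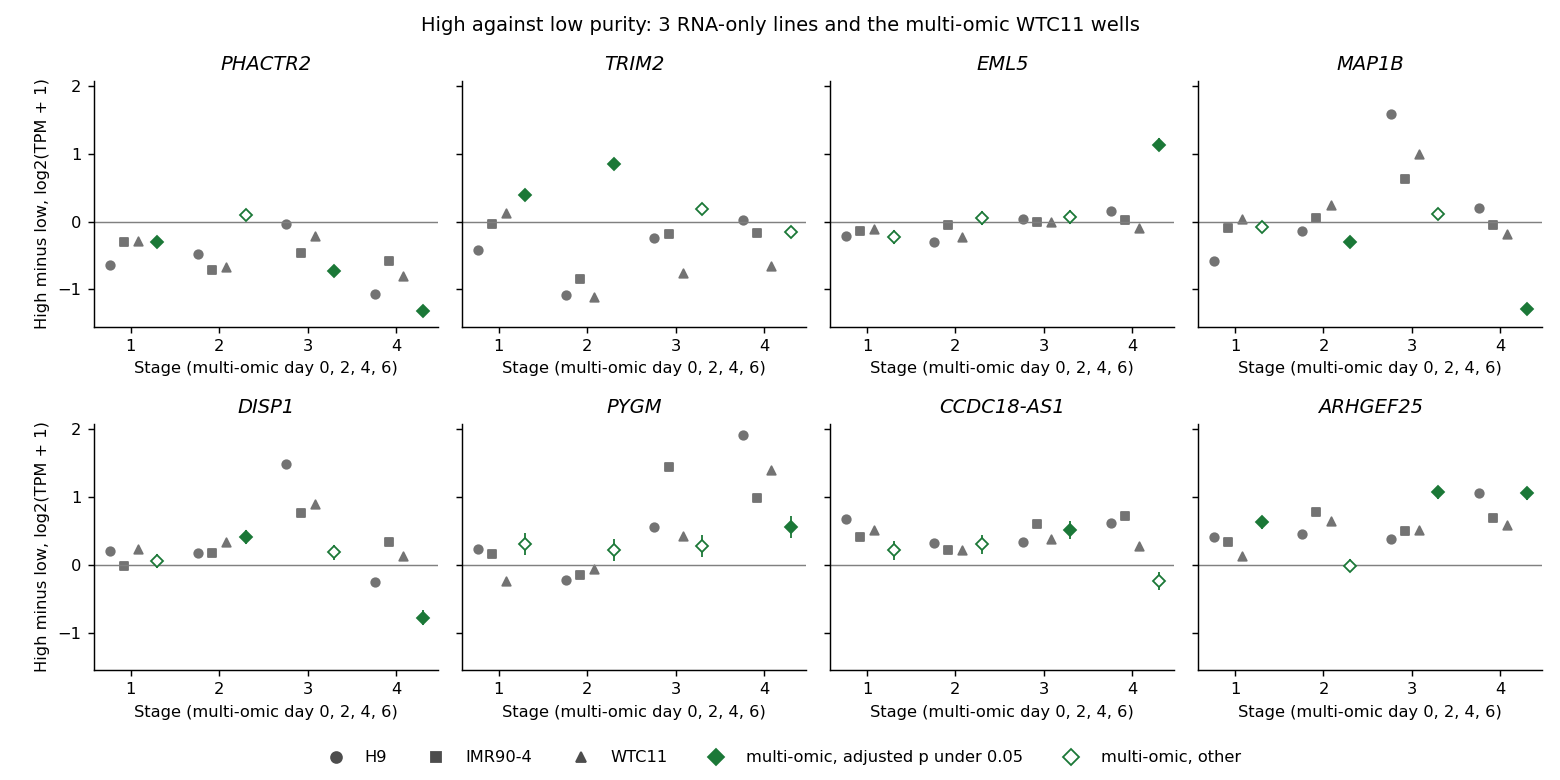
High minus low purity difference in log2(TPM + 1) (y axis) by stage (x axis) for each gene; grey symbols are the 3 RNA-only lines, 1 pair of libraries each, and green diamonds are the multi-omic WTC11 wells at days 0, 2, 4 and 6 with SE bars, filled where the adjusted p was under 0.05. PHACTR2 and ARHGEF25 have diamonds on the side of the lines at stages 1, 3 and 4, and TRIM2 at stage 2 has its diamond at 0.86 while the lines lie between -1.12 and -0.84.

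Cell type markers also differed between the classes, mostly from day 4 on. Of 7 fibroblast and stromal markers, 6 were lower in high purity wells on days 4, 6, 8, 13 and 16, and 1 was higher on days 6 and 8. Of all genes, 36% to 44.7% were called in either direction on these 5 days. The summed TPM of the 7 on day 16 was 574 to 689.8 in high and 9669 to 13143 in low purity wells, with 0 of the 7 at 0. Of 8 cardiomyocyte markers, 6 were lower in high purity wells on day 4 (summed 76.1 to 110.3 against 1108 to 1263 TPM), and 6 were higher on day 16 (10886 to 12992 against 3888 to 5744 TPM). The 5 epicardial markers were all lower in high purity wells on days 13 and 16. Before that, on days 0 and 2, at most 2 of the 7 stromal and 1 of the 8 cardiomyocyte markers were called in a given direction. The part of these cell types in the results below was not tested.

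In the RNA-only lines the lists were read as sums, without a test. Stromal markers did not go one way at stages 2, 3 and 4: at stage 4 their summed TPM in the high and low purity library was 442 and 1693 in H9, 316 and 231 in IMR90-4 and 296 and 196 in WTC11. Cardiomyocyte markers were lower in high purity in all 3 lines at stage 2 (22.1 and 229 in H9, 12.2 and 16.3 in IMR90-4 and 6.39 and 6.96 in WTC11) and mixed at the later stages. Epicardial markers were higher in high purity in all 3 lines at stage 3, with 31 and 28.3 in H9, 15.2 and 7.1 in IMR90-4 and 7.95 and 1.13 in WTC11. Mesendoderm and mesoderm markers were higher in high purity in all 3 lines at stages 2, 3 and 4, with summed TPM of 459.9 and 279 in H9, 444 and 308 in IMR90-4 and 763 and 459 in WTC11 at stage 2.

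The genes spanned a wide range of abundance. On the TPM scale, which is per length, high purity wells on day 0 held MAP1B at 219 ± 4.26 TPM (SD, n = 4), PHACTR2 at 88.4 ± 3.72 TPM (SD, n = 4), TRIM2 at 39 ± 1.85 TPM (SD, n = 4) and ARHGEF25 at 9.14 ± 1.23 TPM (SD, n = 4). PYGM at 4.64 ± 0.434 TPM (SD, n = 4) and DISP1 at 4.57 ± 0.766 TPM (SD, n = 4) followed and lay within an SD of each other, above CCDC18-AS1 at 2.15 ± 0.339 TPM (SD, n = 4) and EML5 at 0.573 ± 0.18 TPM (SD, n = 4). By day 16 the order in high purity wells was MAP1B at 109 ± 5.85 TPM (SD, n = 3), PYGM at 88.8 ± 3.5 TPM (SD, n = 3) and PHACTR2 at 38 ± 1.58 TPM (SD, n = 3). CCDC18-AS1, TRIM2 and ARHGEF25 then stood at 17.9 ± 2.94 TPM (SD, n = 3), 15.3 ± 0.914 TPM (SD, n = 3) and 13.3 ± 2.98 TPM (SD, n = 3), closer together than their SDs allow to be ordered. DISP1 at 4.19 ± 0.157 TPM (SD, n = 3) and EML5 at 0.255 ± 0.179 TPM (SD, n = 3) were lowest.

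**Figure D3:**
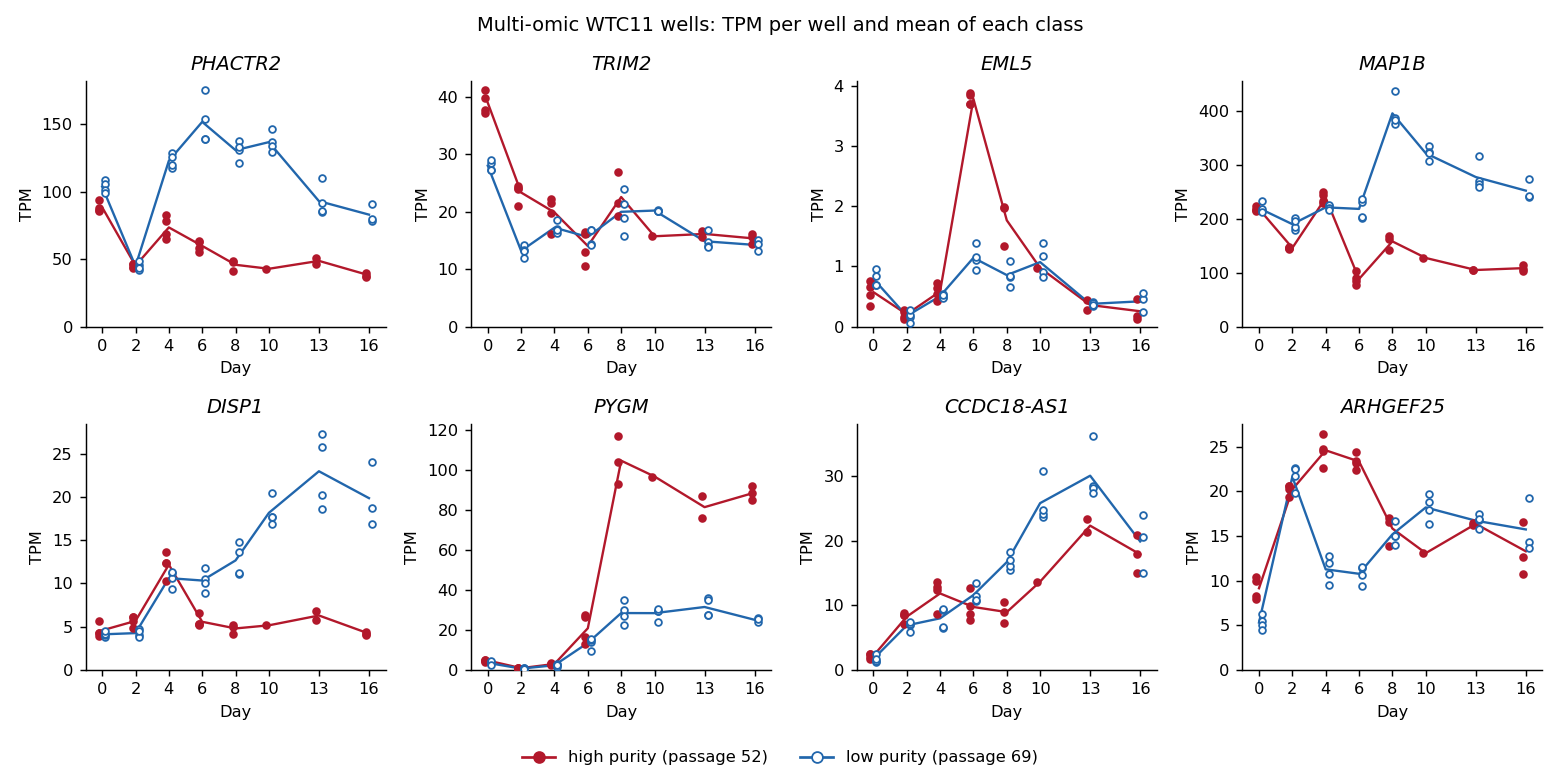
TPM (y axis, linear from 0) of the 8 genes by day (x axis) in the 56 multi-omic WTC11 wells; red points are high purity wells, open blue points low purity wells, and lines join the class means, where day 10 has 1 high purity well. PHACTR2 and MAP1B stay higher in low purity wells from day 6, PYGM stands above 76 TPM in every high purity well from day 8, and EML5 peaks on day 6 in high purity wells.

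Among the actin regulators, PHACTR2 was lower in high purity in both experiments. In the RNA-only libraries, TPM in the high and low purity library was 8.5 and 13.8 in H9, 14.5 and 18.1 in IMR90-4 and 33.3 and 40.8 in WTC11 at stage 1, and 8.02 and 18 in H9, 10.5 and 16.3 in IMR90-4 and 10.7 and 19.4 in WTC11 at stage 4. At stage 4 every high purity library was below every low purity library. At stage 2 TPM was 10.5 and 15.1 in H9, 14.4 and 24.2 in IMR90-4 and 9.43 and 15.5 in WTC11, and at stage 3 it was 14.3 and 14.7 in H9, 16 and 22.4 in IMR90-4 and 12.9 and 15.1 in WTC11. High purity was the lower of each pair, without overlap across lines at stages 2 and 4 and with overlap at stages 1 and 3. The WTC11 libraries of stage 1 were the highest in either class.

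In the multi-omic wells PHACTR2 was lower in high purity on 6 of 7 days tested. On day 0 the high purity wells held 85.6, 86.1, 93.7 and 88.2 TPM and the low purity wells 109, 106, 101 and 98.7 TPM. All high purity wells lay below all low purity wells, and limma gave a log2 difference of -0.30 ± 0.065 (SE), adjusted p = 0.00105. Day 2 was the exception, with 43.8, 46.5, 46.2 and 43.9 TPM in high and 45.5, 41.8, 43.3 and 48.4 TPM in low purity wells, ranges that overlap (log2 difference 0.091 ± 0.065 (SE), adjusted p = 0.301 by limma). Day 2 is also the matched day of stage 2, at which all 3 lines were lower in high purity. The classes then parted: on day 6 wells held 58.4, 62.3, 63.2 and 55.2 TPM in high and 154, 139, 139 and 175 TPM in low purity. Every high purity well was under every low purity well again, and the difference was -1.32 ± 0.065 (SE), adjusted p = 6.84e-21 by limma, its widest. On day 4 it was -0.73, and the later tested days gave -1.22 (day 8), -0.69 (day 13) and -0.87 (day 16), with adjusted p-values by limma of 1.25e-09 or less. The single high purity well of day 10 held 42.8 TPM against 129 to 147 TPM in the 4 low purity wells.

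Both classes passed through a low point of PHACTR2 on day 2. From day 0 to day 2 the limma log2 change was -0.92 in high purity wells (adjusted p = 1.60e-16) and -1.32 in low purity wells (adjusted p = 7.67e-22), and from day 2 to day 4 it was 0.55 in high purity wells (adjusted p = 1.07e-09) and 1.38 in low purity wells (adjusted p = 1.40e-22). From day 4 to day 6 the classes went opposite ways, with -0.34 in high purity wells (adjusted p = 4.97e-05) and 0.25 in low purity wells (adjusted p = 0.00206). The difference between the classes in the change from day 0 was -1.02 ± 0.092 (SE), adjusted p = 6.02e-12, at day 6 and -0.57 ± 0.10 (SE), adjusted p = 9.35e-06, at day 16 by limma. In the RNA-only lines no step between stages was called by edgeR (-0.32, adjusted p = 0.314, from stage 1 to stage 2). Among the 8 genes edgeR called 4 from stage 1 to stage 2 (background 50.9% of all genes), 2 from stage 2 to stage 3 (16.6%) and 2 from stage 3 to stage 4 (6.35%). PHACTR2-AS1, an antisense transcript that overlaps PHACTR2, was at most 2.37 TPM in the multi-omic wells; the kits mark strand, but whether counting used it is not stated, so reads of the pair cannot be told apart.

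Of the 9 other actin and protein phosphatase 1 genes, 4 were higher and 1 lower in high purity wells on day 6, where PHACTR2 differed most and 40% of all genes were called, with a median log2 difference of 0.14; on day 16 it was again 4 and 1, with 0.081, beside 43.1% of all genes. PPP1CC, a catalytic subunit of protein phosphatase 1, was higher on 6 of 7 days, with 245 against 162 TPM in high and low purity wells on day 2. SRF, the transcription factor controlled by actin dynamics, was lower in high purity wells on day 4 (-0.53) and higher from day 6 on (0.62 on day 6 and 0.65 on day 16). PHACTR1, a paralog, went the other way from PHACTR2 on day 16, at 39.3 against 14.8 TPM (log2 difference 1.61).

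ARHGEF25, the exchange factor, was higher in high purity in every RNA-only pair. TPM in the high and low purity library was 6.5 and 4.62 in H9, 2.29 and 1.61 in IMR90-4 and 3.82 and 3.42 in WTC11 at stage 1. At stage 2 the values were 11.2 and 7.9 in H9, 9.2 and 4.96 in IMR90-4 and 10.9 and 6.58 in WTC11. Stage 3 gave 9.76 and 7.29 in H9, 7.9 and 5.33 in IMR90-4 and 12.1 and 8.16 in WTC11, and stage 4 13.1 and 5.75 in H9, 7.83 and 4.48 in IMR90-4 and 15.1 and 9.75 in WTC11. Pairs in WTC11 at stage 1 differed least and pairs in H9 at stage 4 most, and across lines the classes overlapped at stages 1, 3 and 4 but not at stage 2.

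The multi-omic wells went the same way on days 0, 4 and 6. On day 0 ARHGEF25 stood at 8.26, 7.93, 10.4 and 10.00 TPM in high purity wells and 6.29, 5.44, 4.98 and 4.48 TPM in low purity wells. The ranges did not overlap, and the limma log2 difference was 0.63 ± 0.095 (SE), adjusted p = 6.55e-06. On day 2 the classes overlapped at 19.4 to 20.7 and 19.8 to 22.6 TPM (log2 difference -0.015 ± 0.095 (SE), adjusted p = 0.956 by limma). On day 4 the high purity wells held 24.8, 22.7, 26.4 and 24.6 TPM and the low purity wells 9.54, 10.7, 12.8 and 12 TPM, and on day 6 24.4, 23.4, 22.4 and 23.2 TPM and 9.45, 10.6, 11.4 and 11.5 TPM. High purity wells were well above the low purity wells on both days with no overlap, and limma gave 1.07 ± 0.095 (SE), adjusted p = 7.50e-13, on day 4 and 1.05 ± 0.095 (SE), adjusted p = 1.25e-12, on day 6. Deposited TPM overlapped on days 8, 13 and 16, and on day 10, which was not tested, the 1 high purity well held 13.1 TPM and the low purity wells 16.3 to 19.7 TPM; the limma call of day 8 (log2 difference 0.32 ± 0.10 (SE), adjusted p = 0.00979) rested on the scaling of libraries and was 0.055 with an adjusted p of 0.736 without it.

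ARHGEF25 rose in both classes from day 0 to day 2 and then fell in low purity wells. Its log2 change from day 0 to day 2 was 1.11 in high purity wells (adjusted p = 7.35e-14) and 1.75 in low purity wells (adjusted p = 1.69e-20) by limma, and from day 2 to day 4 it was 0.14 in high purity wells (adjusted p = 0.25) and -0.95 in low purity wells (adjusted p = 8.88e-12). In the RNA-only lines the rise from stage 1 to stage 2 was also called by edgeR (1.39, adjusted p = 6.59e-06), and no later step was. The change from day 0 to day 6 differed between the classes by 0.43 ± 0.13 (SE), adjusted p = 0.0164 in limma, a call that edgeR on the recovered reads did not make, and that to day 16 by -0.64 ± 0.14 (SE), adjusted p = 3.95e-04, in the opposite direction.

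TRIM2, the ubiquitin ligase, was the gene called in the multi-omic wells against a direction that all 3 RNA-only lines shared. In the RNA-only libraries TPM in the high and low purity library at stage 2 was 3.78 and 9.11 in H9, 10.9 and 20.4 in IMR90-4 and 10.6 and 24.2 in WTC11. High purity held well under the low purity level in each line, with log2 differences of -1.12 to -0.84. At stage 3 the values were 6.38 and 7.69 in H9, 6.58 and 7.6 in IMR90-4 and 8.51 and 15 in WTC11, lower in high purity again but by less in H9 and IMR90-4. Stages 1 and 4 were mixed, with 24.3 and 32.9 in H9, 24 and 24.7 in IMR90-4 and 19.3 and 17.6 in WTC11 at stage 1 and 6.71 and 6.55 in H9, 6.42 and 7.34 in IMR90-4 and 8.37 and 13.7 in WTC11 at stage 4.

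In the multi-omic wells of day 2, TRIM2 stood at 24.1, 24.5, 23.9 and 20.9 TPM in high and 11.9, 14.2, 13.4 and 13.2 TPM in low purity wells. Every high purity well lay above every low purity well, and the limma log2 difference was 0.86 ± 0.087 (SE), adjusted p = 5.84e-11. Day 0 showed the same order, with 37.2, 37.8, 41.2 and 39.7 TPM and 28.5, 27.3, 29.1 and 27.2 TPM (0.39 ± 0.087 (SE), adjusted p = 0.00141 by limma). WTC11 itself, at the same day 2 step of the RNA-only experiment, had 10.6 TPM at passage 81 (high) and 24.2 TPM at passage 69 (low). The direction thus differed within 1 line between the experiments, which used different kits and different high purity differentiations. Whether the passage 69 differentiation was the same in both is not stated. Days 4 and 6 overlapped (0.19 ± 0.087 (SE), adjusted p = 0.0826, on day 4 and -0.15 ± 0.087 (SE), adjusted p = 0.162, on day 6 by limma).

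Later calls of TRIM2 depended on the scaling. On days 8, 13 and 16 limma called it higher in high purity wells (0.43, 0.32 and 0.33, adjusted p = 1.57e-04, 0.0143 and 0.00641), yet deposited TPM overlapped on each of these days, with 14.3 to 16.1 TPM for high and 13.2 to 15 TPM for low purity at day 16. Without the TMM factors the adjusted p was 0.234, 0.54 and 0.56. The call of day 13 was also lost without high purity well 3 (0.149), and that of day 16 without high purity well 3 (0.107). Removing the scaling moved the median log2 difference of all genes to -0.18 (day 8), -0.13 (day 13) and -0.12 (day 16).

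TRIM2 fell in both classes from day 0 to day 2, by limma -0.69 in high purity wells (adjusted p = 3.96e-09) and -1.15 in low purity wells (adjusted p = 1.37e-15), and then fell further in high but rose in low purity wells, with -0.36 in high purity wells (adjusted p = 5.51e-04) and 0.30 in low purity wells (adjusted p = 0.00301) from day 2 to day 4; without the scaling the high purity fall was not called (adjusted p = 0.0694). In the RNA-only lines the fall from stage 1 to stage 2 was called by edgeR (-0.90, adjusted p = 0.012) and was not called without either H9 differentiation. Its change from day 0 to day 6 differed between classes by -0.54 ± 0.12 (SE), adjusted p = 7.18e-04, in limma. Of the 3 other TRIM-NHL genes, 1 was higher in high purity wells on day 0, 3 on day 6 and, on day 16, 1 higher and 1 lower, beside 13.7%, 40% and 43.1% of all genes called on these days. Pluripotency markers summed to 1439 to 1660 TPM in high and 759 to 797 TPM in low purity wells on day 2. Of 4 tested, 4 were higher, and 0 of the list's 5 were at 0. At stage 2 of the RNA-only experiment the lines were mixed. The high and low purity libraries summed to 629 and 486 TPM in H9, 704 and 729 in IMR90-4 and 616 and 1145 in WTC11. The part of these markers in the TRIM2 differences of either experiment was not tested. In the multi-omic wells TRIM71, a stem cell regulator, stood at 201 against 91 TPM on day 6 and 55.5 against 20.3 TPM on day 13. TRIM32 was higher there on days 0 to 6 (0.79 on day 2) and lower on days 13 and 16 (-0.53 on day 13).

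Of the microtubule genes, MAP1B was higher in high purity at stage 3 in all 3 lines. TPM in the high and low purity library was 65 and 21 in H9, 33.7 and 21.5 in IMR90-4 and 37.7 and 18.5 in WTC11. Each high purity library was above each low purity library at that stage. Mesendoderm and mesoderm markers at stage 3 summed to 246 and 218 TPM in H9, 364 and 169.9 in IMR90-4 and 214 and 91.4 in WTC11. On multi-omic day 4 they summed to 301 to 380 TPM in high and 443 to 499 TPM in low purity wells. Of 6 tested that day, 4 were called higher and 1 lower in high purity, beside 36.8% of all genes called. Their part in the MAP1B and DISP1 differences was not tested. For MAP1B the lines were mixed at the other stages. Stage 1 gave 13.8 and 21.1 in H9, 18.3 and 19.5 in IMR90-4 and 24.6 and 23.8 in WTC11. Stage 2 gave 32.4 and 35.8 in H9, 10.9 and 10.4 in IMR90-4 and 21 and 17.6 in WTC11. Stage 4 gave 30.3 and 26.2 in H9, 9.25 and 9.63 in IMR90-4 and 13.1 and 15.1 in WTC11.

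On day 4 of the multi-omic experiment, the matched step, MAP1B was 245, 229, 249.6 and 233 TPM in high and 225, 226, 220.1 and 216 TPM in low purity wells. High purity wells were slightly higher without overlap, but the limma log2 difference of 0.11 ± 0.074 (SE), adjusted p = 0.249, was not called. On day 6 the order turned, with 90.4, 76.7, 84.5 and 102 TPM in high and 231, 203, 203 and 238 TPM in low purity wells (-1.29 ± 0.074 (SE), adjusted p = 7.33e-19 by limma). It then held to the end: the difference was -1.04 (day 8), -1.17 (day 13) and -0.97 (day 16), each without overlap and with an adjusted p of at most 3.90e-13. On day 16 the wells held 104, 115 and 107 TPM in high and 275, 241 and 242 TPM in low purity. On day 2 MAP1B was already lower in high purity wells (-0.30 ± 0.074 (SE), adjusted p = 0.00109 by limma), whereas deposited TPM overlapped on day 0.

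From day 4 to day 6 MAP1B fell in high purity wells and was not called in low purity wells, with a limma log2 change of -1.48 in high purity wells (adjusted p = 3.85e-21) and -0.070 in low purity wells (adjusted p = 0.522). The difference between classes in the change from day 0 was -1.21 ± 0.10 (SE), adjusted p = 1.34e-12, at day 6 and -0.89 ± 0.11 (SE), adjusted p = 1.41e-08, at day 16. In the RNA-only lines a fall from stage 3 to stage 4 was called by edgeR (-1.07, adjusted p = 0.0274), a call lost without 5 of the 6 differentiations in turn. MAP1B entered the set through stage 3, so this step test reuses values of the choice. At passage 69, low purity WTC11 MAP1B was 23.8 TPM by total RNA on day 0 and 214 to 234 TPM by poly(A) RNA; the 2 tables were normalised separately and made with different kits.

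Of 9 microtubule genes related to MAP1B that were tested, 3 were higher and 2 lower in high purity wells on day 6, where 40% of all genes were called. On day 16, 2 were higher and 5 lower, with a median log2 difference of -0.43; of all genes, 21.3% were lower on that day. TUBB3, a tubulin known from neurons, was lower in high purity wells from day 4 on, at 5.97 against 24.4 TPM on day 16. MAP1A, the closest relative of MAP1B, was lower on day 4 (-1.29) and higher from day 6 on (0.53 on day 6 and 1.05 on day 16). MAP2, a neuronal microtubule protein, was at most 6.84 TPM in the class means. Of 5 neural markers 2 could be tested, and on day 16 1 was higher and 1 lower; the list, with 1 marker at 0, summed to 177 to 215 TPM in high and 157 to 181 TPM in low purity wells.

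EML5 was measured near the limit of the data. In the RNA-only libraries TPM in the high and low purity library was 0.0317 and 0.266 in H9, 0.0228 and 0.0555 in IMR90-4 and 0.0824 and 0.266 in WTC11 at stage 2, on 8 and 59 reads in H9, 8 and 16 in IMR90-4, and 16 and 95 in WTC11. High purity was lower in each line at stages 1 and 2, with 0.122 and 0.298 in H9, 0.128 and 0.246 in IMR90-4 and 0.326 and 0.429 in WTC11 at stage 1. Lines were mixed at stages 3 and 4, with 0.165 and 0.135 in H9, 0.235 and 0.236 in IMR90-4 and 0.141 and 0.149 in WTC11 and then 0.4002 and 0.251 in H9, 0.578 and 0.548 in IMR90-4 and 0.541 and 0.653 in WTC11.

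The multi-omic high purity wells showed a brief peak. On day 6 EML5 reached 3.84, 3.7, 3.89 and 3.69 TPM in high purity wells, on 148 to 197 reads, and 1.1, 1.15, 1.38 and 0.932 TPM in low purity wells, on 28 to 48 reads. The classes did not overlap, and the limma log2 difference was 1.13 ± 0.10 (SE), adjusted p = 6.40e-13. Day 8 still showed 1.96, 1.99 and 1.35 TPM and 0.828, 0.663, 1.1 and 0.833 TPM (0.72 ± 0.11 (SE), adjusted p = 3.08e-07 by limma). On days 0, 2, 4, 13 and 16 the wells overlapped and no difference was called; on day 2 they held 2 to 15 reads.

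EML5 rose in both classes from day 4 to day 6, with a limma log2 change of 1.53 in high purity wells (adjusted p = 3.47e-17) and 0.47 in low purity wells (adjusted p = 1.70e-04), and its fall from day 6 to day 16 was -1.79 in high purity wells (adjusted p = 8.53e-19) and -0.51 in low purity wells (adjusted p = 9.41e-05). The change from day 0 to day 6 differed between classes by 1.36 ± 0.14 (SE), adjusted p = 1.97e-10. RNA-only steps were not called by edgeR (for stage 3 to stage 4, 1.37, adjusted p = 0.0727). Even so, EML5 TPM rose from stage 3 to stage 4 in both classes of each line. These libraries end on day 6 or 7, so a later fall could not be seen in them. EML5 overlaps ZC3H14 on the other strand, whose TPM in the multi-omic wells ran from 12.5 to 25.8, with classes overlapping on day 6 (20.5 to 25.8 in high and 18 to 21.1 in low purity wells). Of the 5 other EML genes, 2 were higher and 2 lower on day 6, where 40% of all genes were called. EML6 was lower in high purity wells on days 2 to 8 and 16, at 2.22 against 7.67 TPM on day 6, where EML5 was higher. EML4, a microtubule-binding family member known as a fusion partner in lung cancer, stood at 39.8 against 112 TPM on day 16.

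DISP1, the hedgehog releaser, was also higher in high purity at stage 3 in the RNA-only lines. At stage 3 TPM in the high and low purity library was 15.2 and 4.79 in H9, 12.1 and 6.73 in IMR90-4 and 8.32 and 4.002 in WTC11. Every high purity library was above every low purity library there, by log2 differences of 0.76 to 1.49. At stage 2 the pairs were 7.72 and 6.74 in H9, 3.53 and 2.99 in IMR90-4 and 4.27 and 3.17 in WTC11, again higher in high purity. At stages 1 and 4 the lines were mixed, with 4.32 and 3.63 in H9, 3.38 and 3.42 in IMR90-4 and 3.56 and 2.9 in WTC11 and then 7.95 and 9.63 in H9, 4.12 and 3.07 in IMR90-4 and 4.19 and 3.76 in WTC11.

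In the multi-omic wells DISP1 was higher in high purity on day 2, with 6.07, 5.64, 6.11 and 4.82 TPM against 4.68, 3.98, 3.81 and 4.53 TPM (0.41 ± 0.11 (SE), adjusted p = 0.00173 by limma). The wells did not overlap. On day 4 they did, at 10.3 to 13.6 and 9.33 to 11.4 TPM, and the limma log2 difference of 0.18 ± 0.11 (SE), adjusted p = 0.193, was not called. From day 6 DISP1 was lower in high purity wells: 6.56, 5.29, 5.26 and 5.14 TPM in high and 10.6, 8.93, 10.1 and 11.8 TPM in low purity ones at day 6 (-0.78 ± 0.11 (SE), adjusted p = 6.46e-08 by limma). By day 16 the wells held 4.07, 4.37 and 4.13 TPM in high and 24, 16.9 and 18.7 TPM in low purity (-1.81 ± 0.12 (SE), adjusted p = 1.44e-16 by limma). The gap was wider on each later day tested, with -0.99 on day 8 and -1.51 on day 13.

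From day 6 to day 16 DISP1 rose in the low purity wells, with a limma log2 change of 0.028 in high purity wells (adjusted p = 0.887) and 1.06 in low purity wells (adjusted p = 1.34e-10). The change from day 0 differed between classes by -0.83 ± 0.15 (SE), adjusted p = 3.12e-05, at day 6 and by -1.87 ± 0.16 (SE), adjusted p = 6.60e-13, at day 16. In the RNA-only lines edgeR called its rise from stage 2 to stage 3 (0.88, adjusted p = 0.0153), a call lost without the WTC11 high purity or either IMR90-4 differentiation. DISP1 entered the set through stage 3, so this step test reuses values of the choice.

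Hedgehog genes around DISP1 were mixed, with 3 higher and 3 lower of 17 tested on day 0, 5 and 6 on day 6, and 3 and 7 on day 16. Of all genes tested 13.7% were called on day 0, 40% on day 6 and 43.1% on day 16. GLI2, a transcription factor of the pathway, was lower in high purity wells from day 4 on, at 2.3 against 17.9 TPM on day 8. BOC, a co-receptor for the ligands, was higher on days 2 and 4 (0.56 on day 4) and lower from day 6 on (-0.71 on day 6 and -1.7 on day 16). HHIP, which binds and sequesters the ligands, was 1.21 against 10.4 TPM on day 16. SCUBE1, of the family that helps release the ligands, changed sign several times, being higher on day 0 (0.69), lower on day 4 (-1.72) and higher on day 16 (0.89).

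PYGM, the muscle glycogen phosphorylase, was higher in high purity late in each experiment. At stage 4 TPM in the high and low purity library was 28.9 and 6.96 in H9, 19.3 and 9.3 in IMR90-4 and 13.7 and 4.55 in WTC11. High purity was above low purity in each line, with log2 differences of 0.98 to 1.91. At stage 3 the pairs were 10.2 and 6.6 in H9, 9.2 and 2.75 in IMR90-4 and 2.03 and 1.25 in WTC11, in the same direction. At stage 2 the direction was the other way in all 3 lines at low levels, with 1.79 and 2.25 in H9, 0.349 and 0.496 in IMR90-4 and 0.28 and 0.333 in WTC11, and stage 1 was mixed, with 4.37 and 3.57 in H9, 2.14 and 1.82 in IMR90-4 and 1.53 and 1.98 in WTC11.

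In the multi-omic wells PYGM on day 6 was 27.5, 16.3, 13 and 26.4 TPM in high and 13.9, 15.1, 15.6 and 9.29 TPM in low purity wells. The ranges overlapped, and the limma log2 difference was 0.55 ± 0.16 (SE), adjusted p = 0.00427. On day 8 they were far apart, with 93.1, 117 and 104 TPM and 22.4, 34.9, 29.7 and 26.7 TPM (2.13 ± 0.17 (SE), adjusted p = 4.52e-14 by limma), and on day 16 the wells held 92.4, 88.8 and 85.4 TPM and 23.8, 26.1 and 25.3 TPM (2.02 ± 0.18 (SE), adjusted p = 1.10e-12). On days 0, 2 and 4 the classes overlapped and were not called; on day 2 PYGM was at most 0.976 TPM.

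PYGM dipped and then rose in both classes. The limma log2 change was -1.64 in high purity wells (adjusted p = 3.32e-12) and -1.55 in low purity wells (adjusted p = 1.61e-11) from day 0 to day 2, and 2.36 in high purity wells (adjusted p = 1.19e-16) and 2.08 in low purity wells (adjusted p = 1.29e-14) from day 4 to day 6. The RNA-only lines had the same course. By edgeR the change was -1.62 (adjusted p = 0.00314) from stage 1 to stage 2 and 2.58 (adjusted p = 0.00118) from stage 2 to stage 3. From stage 3 to stage 4 edgeR gave 1.5 (adjusted p = 0.0277), a call lost without 4 of the 6 differentiations in turn. That last step reuses the stage 4 values by which PYGM entered the set. Its change from day 0 to day 6 was not called different between classes in limma (0.25 ± 0.23 (SE), adjusted p = 0.495), and that to day 16 was (1.72 ± 0.24 (SE), adjusted p = 1.50e-07).

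In the multi-omic experiment many other glycogen enzymes were already higher in high purity wells on day 2, when PYGM was not called. Of 14 tested, 12 were higher and 1 lower on day 2, where 20.5% of all genes were higher, with a median log2 difference of 0.49; on day 4, 6 were higher and 5 lower, and on day 16, 9 were higher and 2 lower (0.53), with 36.8% and 43.1% of all genes called on these days. PGM1, which interconverts glucose phosphates, was higher on all 7 days, at 36.7 against 21.8 TPM on day 0 and 201 against 69.2 TPM on day 2. PHKG2, a catalytic subunit of the kinase that activates phosphorylase, was also higher on all 7 days by smaller amounts (0.24 on day 2 and 0.51 on day 16). GYS1, the muscle glycogen synthase, was 57.6 against 29 TPM on day 2 and 87.4 against 40.6 TPM on day 16. In the multi-omic wells 2 of 4 skeletal muscle markers tested were higher on day 16. The list of 6, with 2 at 0, then summed to 258 to 332 TPM in high and 105 to 188 TPM in low purity wells. Cardiomyocyte markers are given above, and the part of either in PYGM was not tested.

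CCDC18-AS1, the non-coding RNA, was higher in high purity in all 12 RNA-only pairs. TPM in the high and low purity library was 6.26 and 3.56 in H9, 2.07 and 1.31 in IMR90-4 and 1.48 and 0.743 in WTC11 at stage 1. At stage 2 the values were 9.01 and 7.03 in H9, 5.23 and 4.34 in IMR90-4 and 4.23 and 3.52 in WTC11. Stage 3 gave 10.7 and 8.31 in H9, 8.76 and 5.45 in IMR90-4 and 7.17 and 5.3 in WTC11, and stage 4 11.4 and 7.08 in H9, 7.24 and 4.03 in IMR90-4 and 7.89 and 6.31 in WTC11. H9 was the highest line in each class at all 4 stages. At stages 1 and 2 its low purity library exceeded the high purity libraries of the other lines. Across lines the classes did not overlap at stage 4 alone. In GENCODE v29 it overlaps CCDC18 and DR1 on the other strand. DR1, a transcriptional repressor that in RefSeq starts beside it without overlap, was higher in high purity in 5 of 12 pairs, and CCDC18 in 4 of 12. Whether the counting used strand is not stated, so reads shared by these genes cannot be told apart.

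**Figure D4:**
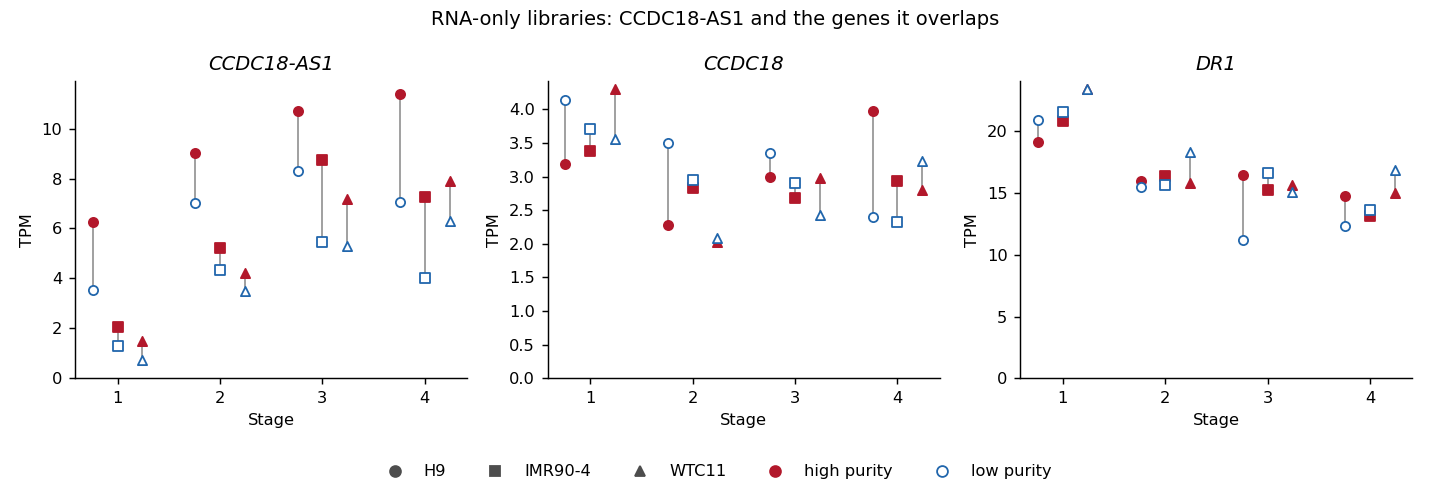
TPM (y axis, linear from 0) of CCDC18-AS1, CCDC18 and DR1 by stage (x axis) in the 24 RNA-only libraries; filled red symbols are high and open blue symbols low purity, shape is the line, and a grey line joins each pair. CCDC18-AS1 is higher in high purity in 12 of 12 pairs, CCDC18 in 4 and DR1 in 5.

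The multi-omic wells went the same way with a call on day 4. They held 12.8, 8.63, 13.5 and 12.3 TPM in high and 6.5, 9.33, 9.35 and 6.69 TPM in low purity wells of day 4, with overlap in 1 high purity well, and the limma log2 difference was 0.52 ± 0.14 (SE), adjusted p = 0.00214. On day 8 the direction was the other way, with 10.5, 8.98 and 7.29 TPM in high and 18.2, 15.4, 16 and 17 TPM in low purity wells, which did not overlap (-0.59 ± 0.15 (SE), adjusted p = 0.00101 by limma). On days 0, 2, 6, 13 and 16 no difference was called, with log2 differences of 0.21, 0.30, -0.24, -0.19 and 0.094. CCDC18 was lower in high purity wells on 6 of 7 days (6.15 against 19.5 TPM on day 8) and DR1 on days 13 and 16, with 13.8 against 26.5 TPM on day 16. All 5 neighbouring genes, including TMED5 and FNBP1L, were lower in high purity wells on day 16, where 21.3% of all genes were.

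CCDC18-AS1 rose early in both classes and in the RNA-only lines. From day 0 to day 2 its limma log2 change was 1.59 in high purity wells (adjusted p = 9.17e-14) and 1.5 in low purity wells (adjusted p = 5.39e-13), and edgeR gave 1.45, adjusted p = 4.08e-05, from stage 1 to stage 2 in the RNA-only lines. It rose again from day 6 to day 16, by limma 1.23 in high purity wells (adjusted p = 1.15e-09) and 0.90 in low purity wells (adjusted p = 1.59e-06). No difference between classes in the change from day 0 was called at day 6 (-0.45 ± 0.19 (SE), adjusted p = 0.0936) or day 16 (-0.12 ± 0.21 (SE), adjusted p = 0.73).

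Patterns over the 16 class and day means were compared among 14856 genes, as a description; the means share differentiations and libraries. Nearest to PYGM were PRKAG2 (Pearson r = 0.98, Spearman coefficient = 0.97) and FAM78A (Pearson r = 0.98, Spearman coefficient = 0.97); PRKAG2 encodes a regulatory subunit of AMP-activated kinase. Nearest to CCDC18-AS1 were LMF1 (Pearson r = 0.98, Spearman coefficient = 0.94) and ZNF148 (Pearson r = 0.97, Spearman coefficient = 0.93), and to DISP1 PKHD1L1 (Pearson r = 0.94, Spearman coefficient = 0.89) and COL6A5 (Pearson r = 0.94, Spearman coefficient = 0.87). For PHACTR2 they were PODXL (Pearson r = 0.93, Spearman coefficient = 0.88) and ACER3 (Pearson r = 0.93, Spearman coefficient = 0.92), PODXL being a surface sialomucin of pluripotent cells. For MAP1B they were PNMA2 (Pearson r = 0.85, Spearman coefficient = 0.78) and TUBA1A (Pearson r = 0.82, Spearman coefficient = 0.81), the latter an alpha-tubulin, with the lowest Pearson r of the 8 genes. For TRIM2 they were AAR2 (Pearson r = 0.93, Spearman coefficient = 0.85) and MRRF (Pearson r = 0.91, Spearman coefficient = 0.83), for EML5 ISX (Pearson r = 0.92, Spearman coefficient = 0.60) and CYP4X1 (Pearson r = 0.92, Spearman coefficient = 0.82), and for ARHGEF25 PTGR1 (Pearson r = 0.90, Spearman coefficient = 0.83) and CPXM1 (Pearson r = 0.90, Spearman coefficient = 0.64). Among the 8 genes themselves the highest Pearson r was 0.69, between PHACTR2 and MAP1B, and the lowest was -0.69, between PHACTR2 and ARHGEF25.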

How the data were processed

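Poly(A) RNA from 56 WTC11 wells and total RNA from 24 libraries of 3 lines were analysed. The authors aligned reads to hg38 with STAR 2.5.3a and counted them with featureCounts 2.0.3, per the submitters' processing notes; the annotation release, strand setting and TPM computation are not given in the sources used here. The deposited counts are whole reads per gene, not normalised, per the file headers and values. The deposited TPM values are relative to gene length, with an equal total in each library. The 8 genes and all gene lists were chosen with earlier results of these data known. Some genes of these lists are not reported here.

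Multi-omic TPM was divided by TMM factors, log2(TPM + 1) was fitted with limma 3.58.1 (trend) to 16 class and day means, with 40 residual degrees of freedom, for the 25664 genes that reached 1 TPM in 3 or more libraries. Day 10, with 1 high purity well, was not tested. RNA-only counts were fitted with edgeR 4.0.16 (quasi-likelihood, R 4.3.3) with differentiation as a block, over 23848 genes and 15 residual degrees of freedom, to test steps between stages. A call was a Benjamini-Hochberg adjusted p under 0.05 over all genes. Whole reads were recovered from the multi-omic TPM for 37194 genes, with 100% of nonzero values whole within 0.01 reads or 0.001 of the value. Methods were tested on simulated data.

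Of each related list, the text names at most 4 genes, those called on the most days between the classes. For each of the 8 genes it also names the 2 protein-coding genes of highest Pearson correlation over the 16 means. Alternatives were RLE or no scaling, a pseudocount of 0.1, no filter, edgeR and DESeq2 1.42.0 on recovered reads, the count table's own names, a well-number block, and leaving out each well or differentiation. Leaving out the 3 low purity day 13 wells nearest to day 16 was chosen after seeing the data. Any pairing of wells by number was weak: of 24 same-number pairs, 2 had a correlation over 0.1. The median correlation was 0.035 for same-number pairs and -0.0015 for other pairs. Of 24 high purity wells, 10 correlated best with the low purity well of their own number.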

Additional observations from a re-analysis of the deposited data

Results flagged for a closer look

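In 4 of 88 groups of 4 wells, 1 well stood apart from the other 3 by Dixon's criterion, which chance meets in about 1 in 20 groups. TRIM2 had a high purity well at 20.9 TPM on day 2, and DISP1 a high purity well at 6.56 TPM on day 6. CCDC18-AS1 had a low purity well at 30.7 TPM on day 10 and another at 36.3 TPM on day 13.

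The change from day 0 differed between the classes, by limma's interaction term with Benjamini-Hochberg adjustment, for 6 of the 8 genes at day 6 (background 22.1% of genes) and 5 at day 16 (34.8%). At day 6 the difference, high minus low purity on the log2 scale, was -1.02 for PHACTR2, -0.54 for TRIM2, -1.21 for MAP1B, -0.83 for DISP1, 1.36 for EML5 and 0.43 for ARHGEF25. The ARHGEF25 call was lost without scaling, with edgeR or DESeq2 on recovered reads, and without low purity well 1 of day 0 (0.36) or of day 6 (0.36). At day 16 it was -0.57 for PHACTR2, -0.89 for MAP1B, -1.87 for DISP1, -0.64 for ARHGEF25 and 1.72 for PYGM.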

How the results depend on the processing

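RLE scaling, a pseudocount of 0.1, no filter and DESeq2 on recovered reads kept the call and direction of all 56 high against low results of the 8 genes, and edgeR on recovered reads of 55, with 1 gained. The well-number block changed none of the 56, nor the 64 time changes or 16 differences in change, so the pairing by well number altered no call. Under the count table's own names the genes called numbered 5839, 2527, 3355, 5258, 4158, 3411 and 880 on days 0, 2, 4, 6, 8, 13 and 16, against 3521, 9616, 9440, 10278, 11471, 9244 and 11051, and 17 log2 differences changed sign: day 0, DISP1 -1.61; day 2, PHACTR2 -0.79, MAP1B 0.089, PYGM -0.94 and ARHGEF25 1.11; day 4, MAP1B -1.45, DISP1 -1.05 and CCDC18-AS1 -0.39; day 6, TRIM2 0.65; day 8, PHACTR2 0.13, EML5 -1.27, DISP1 0.49 and CCDC18-AS1 1.07; day 13, EML5 -0.41 and PYGM -3.84; day 16, DISP1 0.39 and ARHGEF25 0.35. For 50 of the 56 columns these are the same values under other names. Without scaling the sign changed for EML5 (-0.022) and ARHGEF25 (-0.029) on day 13, CCDC18-AS1 on day 16 (-0.13), and, over time, DISP1 in high purity from day 6 to 16 (-0.33) and in low purity from day 0 to 2 (0.039), and TRIM2 in low purity from day 6 to 16 (-0.12). Without the 3 low purity day 13 wells, 5878 genes were called on day 13.

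In the RNA-only steps, dropping the differentiation block left 1510 genes called from stage 2 to 3 (3949 with it) and 633 from stage 3 to 4 (1515), and DESeq2 called 2413 from stage 3 to 4. Leaving out 1 differentiation gave 1368 to 5252 and 449 to 2399; the lowest lacked an IMR90-4 and the highest the H9 low purity differentiation. The sign changed for ARHGEF25 from stage 3 to 4 without the block (0.062) and with limma (0.067), for MAP1B from stage 1 to 2 with limma (-0.045), and for the EML5 difference in change to day 16 with edgeR (-0.018). With 1 well or differentiation left out, log2 ranges that cross 0 were, between classes, -0.021 to 0.11 for DISP1 on day 0, -0.050 to 0.010 and -0.12 to 0.13 for ARHGEF25 on days 2 and 16, -0.059 to 0.14 for EML5 on day 13 and -0.070 to 0.23 for CCDC18-AS1 on day 16. For the difference in change to day 16 they were -0.031 to 0.16 for EML5 and -0.31 to 0.015 for CCDC18-AS1. For RNA-only steps they were -0.16 to 0.21 for MAP1B from stage 1 to 2, and -0.024 to 0.11 and -0.079 to 0.073 for ARHGEF25 from stage 2 to 3 and 3 to 4. None of these ranges belongs to a called result. The cause was not tested. EML5, at 2 to 197 reads per well, is limited by depth.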
